A study of Homo sapiens with 4 samples.

Results

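The 7 genes described here write, maintain and remove cytosine methylation in DNA, and they were taken by name from the gene table of 22637 genes, in which all 7 were listed. They are the maintenance methyltransferase DNMT1 and its recruiter UHRF1, the de novo methyltransferases DNMT3A and DNMT3B, and the dioxygenases TET1, TET2 and TET3. A single RNA-seq library was made from each of 4 established human lines of prostate adenocarcinoma. LNCaP, an androgen-responsive line described in the deposit as castration-sensitive, was compared with LN-OlapR, the subline made resistant to the PARP inhibitor olaparib (the LN pair). C4-2B, a castration-resistant line derived from LNCaP and labelled parental, was compared with its olaparib-resistant subline 2B-OlapR (the 2B pair). The sublines came from long culture in rising amounts of olaparib and are kept in the drug, whereas the deposited description states that all 4 lines were plated without selection agent for 48 hours before RNA isolation, and the labels give all 4 as untreated. The plating time given in the study's methods is longer. Each parental line has 1 subline, so a difference between a subline and its parent cannot be told apart from a difference between these cultures, and no p-value was computed.

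DNA methylation in mammals is placed mostly on the cytosine of CpG dinucleotides. After replication, UHRF1 binds hemimethylated CpG sites and brings DNMT1 to copy the mark onto the new strand, so both are most needed in S phase. DNMT3A and DNMT3B place methylation on unmethylated sites. The TET enzymes oxidize methylcytosine in a reaction that uses iron and 2-oxoglutarate, and the oxidized bases are then lost by dilution at replication or by excision by the glycosylase TDG. In prostate cancer, the gain of methylation at promoters such as that of GSTP1 is a well known change, and TET2 is among the genes altered in the disease. Only RNA was measured here, and neither methylation nor the proteins.

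Levels are given as normalized CPM, the count of a gene rescaled to the same library total in every line after TMM scaling, which takes most genes to be at the same level in the libraries. Differences are given as log2 ratios of the resistant over the parental library, with 0.5 counts added to each. All intervals are at the 95% level and cover counting error only. Totals ranged from 19950537 to 26394267 counts per library. The luminal prostate markers FOXA1, HOXB13, KRT8, KRT18, FOLH1 and TMPRSS2 were between 130.4 and 734.8 normalized CPM in every library. The basal marker KRT14 was at 0.56 or lower. The other marker lists were low, with COL1A1 the highest, at 7.14 to 16.1 normalized CPM. KLK3, the gene for prostate-specific antigen and a luminal marker, was at 53.1 in LNCaP and at 1870 to 2685 in the other lines, so the LNCaP library stood apart in this marker. The part of this in the values of the LN pair was not tested, and the 2B pair does not use that library.

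The promoters of 5 of the genes are shown, those of the maintenance genes DNMT1 and UHRF1, whose ratios were above 0 in both pairs, and those of DNMT3A, DNMT3B and TET1, which were at least 1.5-fold lower in both. Each sequence runs 5′ to 3′ on the strand of the gene, from 250 bases before to 50 after a RefSeq start in GRCh38.p14. DNMT1 is shown from chr19:10194904-10195203 on the minus strand and UHRF1 from chr19:4909251-4909550 on the plus strand. DNMT3A is shown from chr2:25342541-25342840 on the minus strand. DNMT3B is shown from chr20:32779602-32779901 and TET1 from chr10:68560087-68560386, both on the plus strand. Capitals mark forms of the core bound by E2F factors, the activators of S-phase genes, on either strand. The first form searched was TTCCCGC. Another form was TTGGCGC. The last form was TTCGCGC.
DNMT1 promoter: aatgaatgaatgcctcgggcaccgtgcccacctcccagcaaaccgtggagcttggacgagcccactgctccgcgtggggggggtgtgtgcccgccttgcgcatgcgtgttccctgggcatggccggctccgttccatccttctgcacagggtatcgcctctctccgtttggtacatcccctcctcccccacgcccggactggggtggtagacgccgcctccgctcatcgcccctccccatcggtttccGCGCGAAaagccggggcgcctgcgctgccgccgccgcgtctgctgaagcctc
UHRF1 promoter: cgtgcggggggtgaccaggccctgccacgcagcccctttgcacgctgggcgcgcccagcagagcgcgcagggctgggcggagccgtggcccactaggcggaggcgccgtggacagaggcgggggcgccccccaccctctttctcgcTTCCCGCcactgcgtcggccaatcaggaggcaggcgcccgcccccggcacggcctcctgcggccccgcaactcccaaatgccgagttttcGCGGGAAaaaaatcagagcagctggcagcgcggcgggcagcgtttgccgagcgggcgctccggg
DNMT3A promoter: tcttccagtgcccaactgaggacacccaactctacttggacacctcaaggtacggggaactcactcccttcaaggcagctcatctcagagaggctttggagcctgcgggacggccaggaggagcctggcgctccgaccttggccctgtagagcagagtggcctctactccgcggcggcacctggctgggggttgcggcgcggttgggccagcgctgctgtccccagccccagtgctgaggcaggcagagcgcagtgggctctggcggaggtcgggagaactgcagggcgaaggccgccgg
DNMT3B promoter: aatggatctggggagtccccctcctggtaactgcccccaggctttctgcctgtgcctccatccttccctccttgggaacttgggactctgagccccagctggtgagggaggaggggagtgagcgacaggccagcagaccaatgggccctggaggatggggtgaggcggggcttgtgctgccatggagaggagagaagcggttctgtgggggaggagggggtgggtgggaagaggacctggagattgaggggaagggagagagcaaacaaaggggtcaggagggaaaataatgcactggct
TET1 promoter: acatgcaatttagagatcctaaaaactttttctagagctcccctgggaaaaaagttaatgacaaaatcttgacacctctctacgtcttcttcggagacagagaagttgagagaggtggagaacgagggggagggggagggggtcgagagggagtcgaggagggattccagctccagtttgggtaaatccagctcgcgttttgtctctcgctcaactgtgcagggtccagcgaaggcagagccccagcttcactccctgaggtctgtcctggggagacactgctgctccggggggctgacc

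All 7 genes had an entry among the 35116 RefSeq promoters, with 18 starts in all, and the starts shown are those nearest to the start of the gene in GENCODE release 29. The marked words were found at 1 position in the DNMT1 promoter and at 2 in the UHRF1 promoter shown, and at least 1 was found in 11.03% of all promoters, and at least 2 in 1.32%. Of the 18 starts, 4 held a word, namely the single DNMT1 start, 2 of the 3 UHRF1 starts and 1 of the 2 TET3 starts. The letters were not in any of the windows of DNMT3A, DNMT3B, TET1 and TET2. These matches describe the letters and not a bound site. The promoters also differed in CpG content. The windows shown held 30 CpG dinucleotides for DNMT1, 36 for UHRF1, 18 for DNMT3A, 3 for DNMT3B and 10 for TET1, beside a median of 14 over all promoters. Other starts of the same gene could differ widely from the window shown. The other DNMT3A starts held 18 to 46, with 46 at a start 665 bases inside the gene. The other UHRF1 starts held 40 and 46, and the other TET1 starts 6 and 11. The DNMT1 start lay 36333 bases and the DNMT3B start 17467 bases inside the GENCODE gene, and no other start of these genes was listed. The sequence at the GENCODE start of these 2 genes was thus not searched. The CpG count and the absence of the words for DNMT3B are those of this inner window alone. The counts are per gene and do not say which start was used.

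In GENCODE release 29 on GRCh38, DNMT1 lies on chromosome 19 from 10133345 to 10231286 on the minus strand and UHRF1 on chromosome 19 from 4903080 to 4962154 on the plus strand. DNMT3A lies on chromosome 2 from 25227855 to 25342590 on the minus strand, and DNMT3B on chromosome 20 from 32762385 to 32809356 on the plus strand. TET1 lies on chromosome 10 from 68560656 to 68694482, TET2 on chromosome 4 from 105145875 to 105279816, and TET3 on chromosome 2 from 73986404 to 74108176, all on the plus strand. DNMT1 was the only one of the 7 whose exons overlap those of another annotated gene. That gene is S1PR2 on the same strand, which had 74 to 139 counts in the 4 libraries beside 6633 to 7156 for DNMT1.

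The 2 de novo methyltransferases and TET1 were lower in both resistant lines, and UHRF1 was slightly higher in both. DNMT3A was 2.76-fold lower in LN-OlapR and 2.61-fold lower in 2B-OlapR, each against its parental line. TET1 was 2.02-fold lower in LN-OlapR and 6.63-fold lower in 2B-OlapR. DNMT3B was 1.97-fold lower in LN-OlapR and 1.94-fold lower in 2B-OlapR. UHRF1 was 1.26-fold and 1.30-fold higher. DNMT1 was 1.08-fold and 1.05-fold higher, which depended on the scaling. TET2 and TET3 differed by less than 1.5-fold in either pair.

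**Figure D1:**
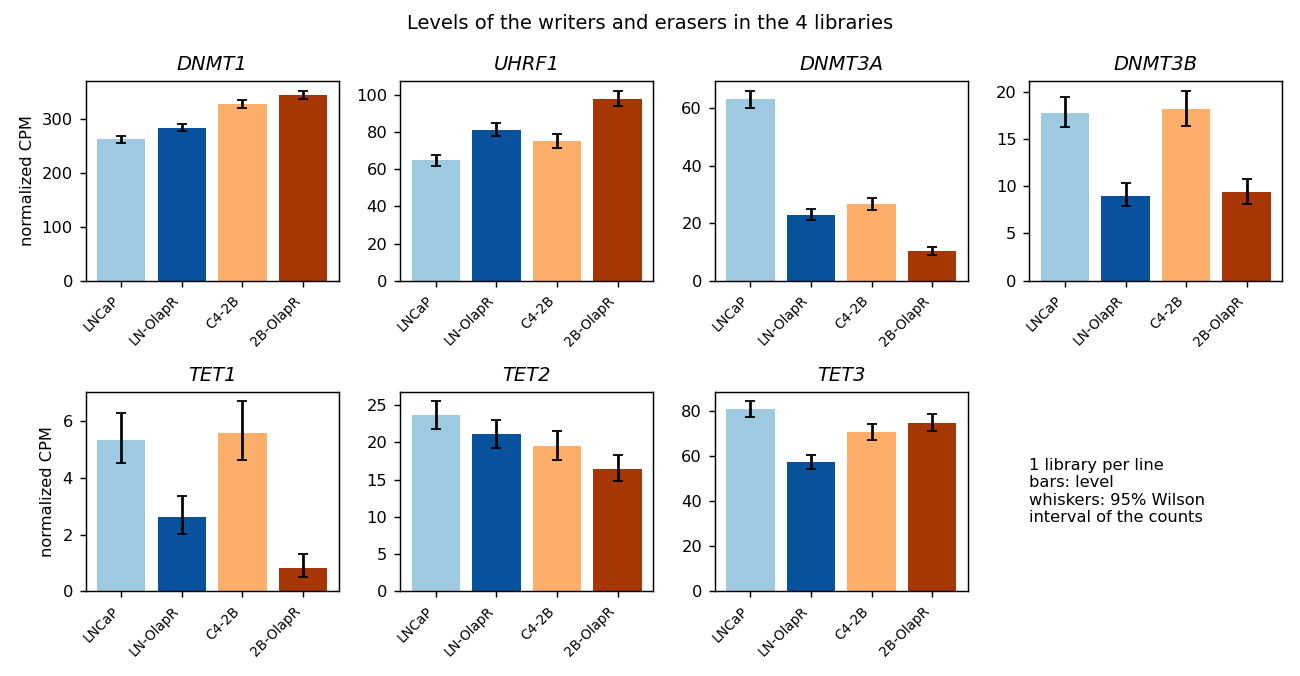
Normalized CPM (vertical axis, from 0, a scale of its own for each gene) of the 7 genes in the 4 libraries, as bars with 95% Wilson intervals of the counts. DNMT3A, DNMT3B and TET1 are lower in each resistant line (dark bars) than in its parental line (light bars), while UHRF1 is slightly higher.

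All 7 genes passed the minimum mean of 1 normalized CPM in both pairs, TET1 in the 2B pair only through C4-2B, as its level in 2B-OlapR was 0.82. TET1 thus had to be lower in 2B-OlapR, and its place in the counts that use the 2B pair is a description only. In the LN pair, 3 of the 7 were at least 1.5-fold lower, beside 10.8% of the 15373 genes analysed. At least 2-fold lower were 2 of them, DNMT3A and TET1, beside 4.83% of all genes. In the 2B pair, 3 of the 7 were at least 1.5-fold lower, beside 13.5% of the 15527 genes analysed. The same 2 genes were at least 2-fold lower, beside 5.65% of all genes. No member was higher by 1.5-fold in either pair, a count of 0, where 10.6% of all genes were in the LN pair and 10.7% in the 2B pair, and 4.64% and 4.42% were at least 2-fold higher. DNMT3A, DNMT3B and TET1 were at least 1.5-fold lower in both pairs, as were 438 of the 14602 genes analysed in both. Both pairs had DNMT3A and TET1 at least 2-fold lower, and 1.09% of all genes met that rule. TET1 was just past 2-fold in the LN pair, at -1.02, and was at -0.998 with a pseudocount of 2, and it is not analysed with a minimum mean of 10. The median log2 ratio of the 7 genes was -0.50 in the LN pair and -0.24 in the 2B pair, beside -0.0040 and -0.00026 over all genes analysed. The pairs share no library.

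**Figure D2:**
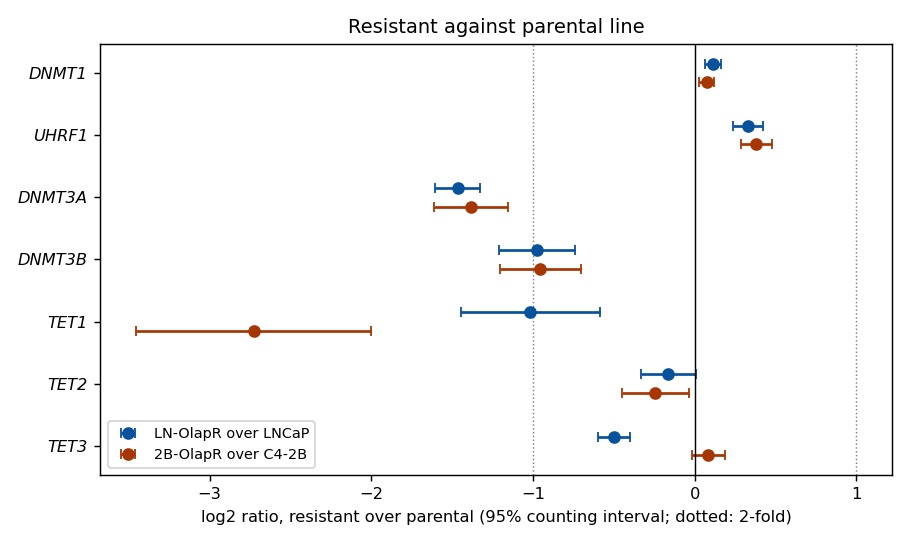
Log2 ratio of the resistant over the parental library (horizontal axis) for each gene in the LN pair (blue) and the 2B pair (brown), with 95% counting intervals and dotted lines at 2-fold. The points of DNMT3A and DNMT3B lie close together in the 2 pairs, at -1.47 and -1.38 and at -0.98 and -0.96, whereas those of TET1 lie apart, at -1.02 and -2.73, and those of TET3 lie on either side of 0.

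DNMT1 copies methylation at replication and was the most abundant of the 7 per length. It had 7062 counts in LNCaP and 6633 in LN-OlapR, and 6717 in C4-2B against 7156 in 2B-OlapR, or 262.7, 284.4, 328.3 and 345.4 normalized CPM. The spread from the lowest line, LNCaP, to the highest, 2B-OlapR, was 1.31-fold, the smallest of the 7 genes. The log2 ratio was 0.11 (0.066 to 0.16) in the LN pair and 0.073 (0.025 to 0.12) in the 2B pair. With total counts as the scaling, the ratios were 0.030 (-0.018 to 0.079) and 0.031 (-0.017 to 0.079), and both intervals included 0. The differences are small beside those between parental lines, where C4-2B exceeded LNCaP by 0.32 (0.27 to 0.37).

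UHRF1 recognizes hemimethylated CpG sites and recruits DNMT1. It had 1741 counts in LNCaP and 1897 in LN-OlapR, and 1542 in C4-2B against 2031 in 2B-OlapR, or 64.8, 81.3, 75.4 and 98.0 normalized CPM. LNCaP was lowest and 2B-OlapR highest, and both resistant lines were above both parental lines with TMM scaling. LN-OlapR was above C4-2B by a log2 ratio of only 0.11 (0.013 to 0.21), which was not recomputed with other scaling. The log2 ratio was 0.33 (0.23 to 0.42) in the LN pair and 0.38 (0.28 to 0.47) in the 2B pair. The difference between the pairs was 0.051 (-0.083 to 0.18), which includes 0. The ratio of UHRF1 to DNMT1 was 1.16-fold (1.08 to 1.25) higher in the resistant line of the LN pair and 1.24-fold (1.15 to 1.33) higher in that of the 2B pair.

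As both genes are expressed with DNA replication, 20 genes of S phase and proliferation were examined beside them. In the 2B pair, 16 of the 20 were higher in 2B-OlapR, with a median log2 ratio of 0.33. Only 4 were lower, beside 50.02% of all genes analysed. In the LN pair, 11 of the 20 were higher in LN-OlapR, with a median of 0.012 that was -0.072 with total counts as the scaling. Lower there were 9 of the list, where 50.4% of all genes were lower, so this count was close to that share. E2F1, a transcription factor of S-phase genes, had the highest ratio in the 2B pair, 0.81 (0.74 to 0.87), and 0.12 (0.040 to 0.20) in the LN pair. PCNA, the sliding clamp of the replication fork, was at 158.8 normalized CPM in C4-2B, 257.1 in 2B-OlapR, 194.7 in LNCaP and 177.7 in LN-OlapR. MKI67, a marker of cycling cells, was at 0.37 (0.33 to 0.42) in the 2B pair but at -0.11 (-0.15 to -0.070) in the LN pair. Some other genes of the list had similar ratios in the LN and 2B pairs. MCM2, a helicase subunit, was at 0.33 and 0.30, and LIG1, which joins replicated strands, at 0.31 and 0.37. Both were picked as examples after their values were seen. The part of proliferation in the values of DNMT1 and UHRF1 was not tested. At the lower end of the list, TYMS, which makes thymidylate, was at -0.38 in the 2B pair and GINS2, a subunit of the replicative helicase, at -0.34 in the LN pair. The highest of the list in the LN pair was MCM7, also a helicase subunit, at 0.41, and it was at -0.17 in the 2B pair.

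DNMT3A places new methylation. It had 1695 counts in LNCaP and 532 in LN-OlapR, and 544 in C4-2B against 211 in 2B-OlapR, or 63.1, 22.8, 26.6 and 10.2 normalized CPM. LNCaP was highest and 2B-OlapR lowest. Of the 2 middle lines, C4-2B was above LN-OlapR by a log2 ratio of 0.22 (0.049 to 0.39). The log2 ratio was -1.47 (-1.61 to -1.33) in the LN pair and -1.38 (-1.61 to -1.15) in the 2B pair. These ranked 396 from the lowest of 15373 genes and 504 from the lowest of 15527 genes. The difference between the pairs was 0.084 (-0.18 to 0.35), which includes 0. C4-2B was itself below LNCaP, with a log2 ratio of -1.25 (-1.38 to -1.11), a comparison that shares its libraries with the 2 pairs. Among the 7 genes, DNMT3A was the only one at least 2-fold lower in C4-2B than in LNCaP, beside 7.18% of all genes. LNCaP was 6.18-fold (5.36 to 7.13) above 2B-OlapR. In bulk RNA, a lower level in every cell cannot be told apart from a loss of the transcript in some of the cells.

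DNMT3B, the second de novo enzyme, had 477 counts in LNCaP and 210 in LN-OlapR, and 372 in C4-2B against 194 in 2B-OlapR, or 17.7, 9.003, 18.2 and 9.36 normalized CPM. The levels formed a high pair of parental lines and a low pair of resistant lines. Neither the parental lines, with a log2 ratio of 0.035 (-0.16 to 0.23) of C4-2B over LNCaP, nor the resistant lines, with 0.057 (-0.22 to 0.34) of 2B-OlapR over LN-OlapR, differed beyond counting error. The ratio was -0.98 (-1.21 to -0.74) in the LN pair and -0.96 (-1.21 to -0.71) in the 2B pair, just short of 2-fold in each. With total counts as the scaling, the LN ratio was -1.06, past 2-fold.

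DNMT3A and DNMT3B did not follow the same pattern over the 4 lines. The ratio of DNMT3B to DNMT3A, per kilobase of the longest annotated transcript, was 0.617 (0.557 to 0.683) in LNCaP and 0.865 (0.737 to 1.01) in LN-OlapR, and 1.498 (1.31 to 1.71) in C4-2B against 2.01 (1.66 to 2.45) in 2B-OlapR. Lengths cancel in the change of this ratio, which was 1.40-fold (1.16 to 1.70) in the LN pair, 1.34-fold (1.06 to 1.70) in the 2B pair and 3.27-fold (2.62 to 4.07) from LNCaP to 2B-OlapR. Which of the 2 was higher within a line depends on the length used, since with the median length of the annotated transcripts the ratio was at most 0.186. The summed level of both enzymes per kilobase was 10.7 normalized CPM in LNCaP and 4.48 in LN-OlapR, and 6.99 in C4-2B against 3.23 in 2B-OlapR. With the median transcript length these sums were 79.3, 29.3, 36.04 and 14.4. The ratio of DNMT1 to DNMT3A changed 2.99-fold (2.70 to 3.32) in the LN pair and 2.75-fold (2.33 to 3.23) in the 2B pair, toward DNMT1.

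**Figure D3:**
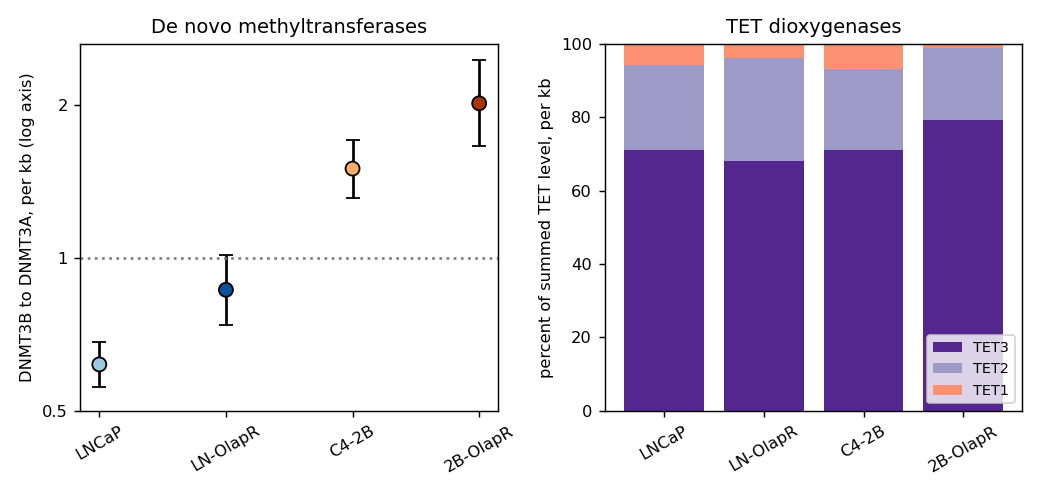
Left, ratio of DNMT3B to DNMT3A per kilobase in each line (log axis, 95% counting intervals, dotted line at equal levels), which goes from 0.617 in LNCaP to 2.01 in 2B-OlapR. Right, percent of the summed TET level per kilobase held by each TET gene, in which TET3 holds 68.2% to 79.4% and TET1 1.07% to 6.88%.

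TET1 starts active demethylation and was the lowest of the 7 genes in every line. It had 143 counts in LNCaP and 61 in LN-OlapR, and 114 in C4-2B against 17 in 2B-OlapR, or 5.32, 2.62, 5.57 and 0.82 normalized CPM. The parental lines were alike within counting error, with a log2 ratio of 0.068 (-0.29 to 0.42) of C4-2B over LNCaP, and both resistant lines were below them. The log2 ratio was -1.02 (-1.45 to -0.59) in the LN pair and -2.73 (-3.45 to -2.002) in the 2B pair. In the 2B pair it ranked 108 from the lowest of 15527 genes, and in the LN pair 718 from the lowest of 15373. The ratio in the 2B pair was lower by 1.71 than in the LN pair, a difference of -1.71 (-2.55 to -0.87) that exceeds the counting error. Between the resistant lines, 2B-OlapR was below LN-OlapR by a log2 ratio of -1.64 (-2.41 to -0.88). In that comparison TET1 and DNMT3A were at least 2-fold lower, 2 of the 7 genes, beside 9.45% of all genes. TET1 passed the minimum in that comparison only through LN-OlapR, and so had to be lower in 2B-OlapR. The same holds for the 2B pair, where TET1 passed only through C4-2B, so its rank there is a description only. The level in 2B-OlapR rests on 17 counts.

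TET2 had 634 counts in LNCaP and 491 in LN-OlapR, and 399 in C4-2B against 341 in 2B-OlapR, or 23.6, 21.0, 19.5 and 16.5 normalized CPM. It lacks the CXXC domain with which TET1 and TET3 bind CpG-rich DNA. Neighbours in the order of the lines differed within counting error except for C4-2B and 2B-OlapR. The log2 ratio was -0.16 (-0.33 to 0.0062) in the LN pair and -0.24 (-0.45 to -0.036) in the 2B pair, so in the LN pair no difference could be detected at this depth. With total counts as the scaling, the LN ratio was -0.25 (-0.42 to -0.078).

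TET3 was the most abundant of the TET genes per kilobase in every line. It had 2178 counts in LNCaP and 1338 in LN-OlapR, and 1445 in C4-2B against 1551 in 2B-OlapR, or 81.0, 57.4, 70.6 and 74.9 normalized CPM. LN-OlapR was the lowest, and 2B-OlapR and C4-2B were within counting error of each other. The log2 ratio was -0.50 (-0.60 to -0.40) in the LN pair and 0.084 (-0.019 to 0.19) in the 2B pair. The difference between the pairs was 0.58 (0.44 to 0.72), larger than the counting error. TET3 was the only member with opposite signs in the 2 pairs, and its interval in the 2B pair includes 0.

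As a share of the summed TET level per kilobase, TET1 made up 5.72% (4.82 to 6.63) in LNCaP and 3.81% (2.88 to 4.75) in LN-OlapR, and 6.88% (5.67 to 8.09) in C4-2B against 1.07% (0.56 to 1.57) in 2B-OlapR. TET3 made up 71.1% (69.4 to 72.8), 68.2% (66.0 to 70.3), 71.1% (69.1 to 73.2) and 79.4% (77.5 to 81.3) in the same order. The sum itself was 10.01 normalized CPM per kilobase in LNCaP and 7.39 in LN-OlapR, and 8.72 in C4-2B against 8.28 in 2B-OlapR. With the median transcript length it was 27.02, 19.5, 23.5 and 23.9. The summed level thus differed less between 2B-OlapR and C4-2B than TET1 did, since TET3 carried most of it. Over all 7 genes, the order per kilobase of the longest transcript was led by DNMT1, UHRF1 and TET3 in every line, with 48.6 to 63.9 normalized CPM per kilobase for DNMT1, 15.03 to 22.7 for UHRF1 and 5.04 to 7.11 for TET3. TET1 was last in every line, at 0.088 to 0.60. With the median transcript length, DNMT1 stayed first and TET1 last, but DNMT3A was above UHRF1 in 3 lines, with 75.1 against 20.05 in LNCaP, 27.2 against 25.2 in LN-OlapR and 31.6 against 23.3 in C4-2B.

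Of 15 paralogs and cofactors of the methyltransferases analysed, 12 were lower in LN-OlapR and 11 in 2B-OlapR, each against its parent, with median log2 ratios of -0.19 and -0.067. Of all genes analysed, 50.4% and 50.02% were lower. At least 1.5-fold lower were 2 of them in the LN pair and 1 in the 2B pair, beside 10.8% and 13.5% of all genes. No gene of the list was that much higher, a count of 0, where 10.6% and 10.7% of all genes were. UHRF2, the paralog of UHRF1, was at 28.3 normalized CPM in LNCaP and 22.9 in LN-OlapR, and 30.3 in C4-2B against 26.4 in 2B-OlapR, and thus opposite in sign to UHRF1 in both pairs. Its log2 ratios were -0.31 (-0.47 to -0.15) and -0.20 (-0.36 to -0.033). HELLS, the remodeler that opens chromatin for methylation, had ratios of -0.45 (-0.58 to -0.32) in the LN pair and 0.042 (-0.12 to 0.20) in the 2B pair. Its activator CDCA7 was the highest of the list in the LN pair, at 0.53 (0.38 to 0.68), and was at -0.0029 (-0.19 to 0.18) in the 2B pair. The lowest in the LN pair was TRDMT1, which methylates tRNA in spite of its likeness to the DNA enzymes, at -0.68. In the 2B pair the lowest was EHMT2, a histone H3 lysine methyltransferase, at -0.61 (-0.70 to -0.52), and the highest was ZBTB24 at 0.31. DNMT3L was not analysed here.

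Of 15 partners of the TET enzymes and genes of base excision, 9 were lower in the resistant line in each pair. The share of all genes that were lower was 50.4% in the LN pair and 50.02% in the 2B pair. Medians of the list were -0.16 in the LN pair and -0.14 in the 2B pair. TDG, which excises oxidized methylcytosine, was at 85.1 normalized CPM in LNCaP and 71.8 in LN-OlapR, and 86.0 in C4-2B against 59.3 in 2B-OlapR. Its log2 ratio was -0.25 (-0.34 to -0.15) in the LN pair and -0.54 (-0.64 to -0.43) in the 2B pair. CXXC5, whose CXXC domain resembles that of the TET family, was the lowest in the LN pair, at -0.998 (-1.16 to -0.84), and was at 0.075 (-0.11 to 0.26) in the 2B pair. APEX1, the endonuclease that cuts abasic sites, was the lowest in the 2B pair, at -0.60 (-0.67 to -0.54). The highest were GADD45B at 0.50 in the LN pair and XRCC1, the scaffold of single-strand break repair, at 0.52 in the 2B pair. XRCC1 was at -0.20 (-0.40 to -0.00069) in the LN pair.

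The list of methyl-CpG readers takes in MBD family relatives such as MBD3, MBD5 and MBD6, whatever their binding to methylated CpG. Its 10 genes divided evenly, with 5 higher and 5 lower in each pair. MBD4, a glycosylase with a methyl-CpG-binding domain, was the highest in the LN pair at 0.68 (0.55 to 0.82) and was at 0.26 (0.099 to 0.43) in the 2B pair. MBD5, listed for its family, was the highest of the list in the 2B pair at 0.72 (0.43 to 1.01). The lowest were MBD2 at -0.28 in the LN pair and ZBTB38 at -0.24 in the 2B pair. Of 17 genes that supply S-adenosylmethionine, the methyl donor, or 2-oxoglutarate, 9 were lower in the LN pair and 12 in the 2B pair, with medians of -0.010 and -0.28. Among all genes, 50.4% and 50.02% were lower in the same pairs. GNMT, which uses up S-adenosylmethionine, was the lowest in the 2B pair at -0.80 (-1.01 to -0.58), and MTRR, which keeps methionine synthase active, the highest at 0.62 (0.47 to 0.78). In the LN pair AHCYL1 was the lowest at -0.58 and D2HGDH, which removes 2-hydroxyglutarate, the highest at 0.59 (0.45 to 0.73). No gene of these 2 lists reached 2-fold in either pair, a count of 0. Among all genes, 4.83% and 5.65% were at least 2-fold lower in the LN and 2B pairs, and 4.64% and 4.42% higher.

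**Figure D4:**
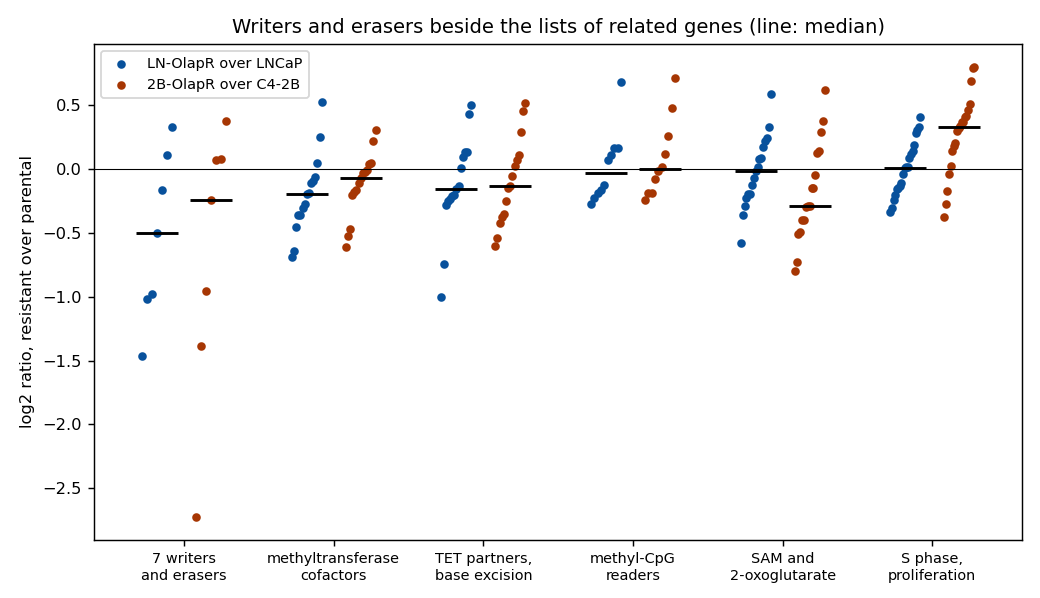
Log2 ratio of the resistant over the parental library (vertical axis) of each analysed gene in the LN pair (blue) and the 2B pair (brown), by list, with the median as a black line. The 7 writers and erasers reach down to -1.47 in the LN pair and -2.73 in the 2B pair, and the medians of the S-phase list are 0.012 (-0.072 with total counts as the scaling) and 0.33.

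Genes whose promoters are known to gain methylation in prostate cancer were listed to see what they did beside the enzymes, although methylation was not measured. GSTP1 was not analysed here. Of 11 genes listed, 4 were analysed, and the count covers these expressed genes only. All 4 were lower in the resistant line of the LN pair and 1 in that of the 2B pair, beside 50.4% and 50.02% of all genes. RARB, a retinoic acid receptor, was at 8.18 normalized CPM in LNCaP and 3.90 in LN-OlapR, and 4.89 in C4-2B against 4.78 in 2B-OlapR, with a log2 ratio of -1.06 (-1.42 to -0.71) in the LN pair. MGMT, which removes alkyl groups from guanine, had ratios of -0.39 (-0.52 to -0.26) in the LN pair and 0.45 (0.31 to 0.58) in the 2B pair. APC was at -0.11 and 0.081.

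Germline genes that are methylated and silent in most somatic cells were at 8.87 normalized CPM or lower in every library. SYCP3, a component of the synaptonemal complex, had 80 counts in LNCaP and 207 in LN-OlapR, and 79 in C4-2B against 17 in 2B-OlapR, with log2 ratios of 1.57 (1.20 to 1.94) and -2.20 (-2.95 to -1.46). It passed the minimum in the 2B pair only through C4-2B, and so had to be lower in 2B-OlapR. BRDT, a testis bromodomain gene, had 70, 5, 11 and 1 counts, and its ratio in the LN pair was -3.48 (-4.73 to -2.22). It passed the minimum in that pair only through LNCaP, and so had to be lower in LN-OlapR. STAG3, a meiotic cohesin, was at 0.026 and 0.093 with intervals that include 0. Of 11 germline genes listed, 3 were analysed in the LN pair and 2 in the 2B pair.

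The genes most like each member over the 4 lines were found by the root mean square difference of log2 levels, each centred on its mean over the 4 libraries, among genes averaging 10 normalized CPM or more. With 4 points and 9914 candidate genes, near matches are easily found, and the likeness is a description only. For DNMT3A the nearest were ASS1, with a difference of 0.13, and BBS10, with 0.15. For DNMT3B they were TUBB3 and TMEM98, with 0.033 and 0.035, and for TET1 MYRIP and JDP2, with 0.071 and 0.089. DNMT1 was nearest to STXBP2 and RPL8, with 0.014 and 0.015, and UHRF1 to SLC25A20 and UBE2E2, with 0.0071 and 0.011. TET2 was nearest to MT-CO2 and VPS13D, with 0.0099 and 0.014, and TET3 to RTN4IP1 and RPA3, with 0.011 and 0.018. RPL8 and MT-CO2 have near-identical copies in the genome with which their reads can be shared. Among the members themselves, DNMT1 and UHRF1 had the smallest difference, 0.14, whereas DNMT3A and TET1 were 0.54 apart and DNMT3A and DNMT3B 0.67. A smaller difference was not a nearer rank among the other genes. UHRF1 ranked 1438 in nearness to DNMT1, and DNMT1 855 in nearness to UHRF1. DNMT3A ranked 50 for TET1, and TET1 267 for DNMT3A. DNMT3B ranked 788 for DNMT3A, and DNMT3A 7788 for DNMT3B.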

How the data were processed

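Stranded mRNA libraries, 1 per line, were made from 100 ng of RNA of 4 prostate cancer lines. The submitters' processing notes name STAR, Partek and GRCh38. Annotation, counting strand and versions are not given in the sources used here. The authors deposited estimated counts per gene, not scaled between libraries, with 46.0% of them not whole. No listed gene sums to less than 10.0 over the 4 libraries.

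Estimated counts were rounded. Scaling factors were computed by TMM in edgeR 4.0.16 (R 4.3.3) over the 4 libraries, and ranged from 0.961 to 1.03. Further steps used Python 3.11.15 with pandas 2.3.3. Log2 ratios used a pseudocount of 0.5 and normal intervals from the counts, levels Wilson intervals. Genes averaging 1 normalized CPM or more in the 2 libraries compared were analysed. As each line has 1 library, no test was run. Called means at least 1.5-fold or 2-fold changed. Transcript lengths came from GENCODE release 29, promoters from RefSeq.

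The genes named are the 7 members, the highest and lowest of each list, a few fixed cofactors and controls, and the 2 nearest genes per member. S1PR2, MCM2 and LIG1 were named after their values were seen. The protein comparison planned was not run, as no protein table was used here. Members and lists were chosen with earlier results of these data known. On counts simulated with counting error only and 4-fold changes, 100.0% of the changed genes were called at 2-fold in each pair. Also called were 10 and 21 unchanged genes. Of the intervals, 95.1% (LN pair, 15392 genes) and 95.2% (2B pair, 15527 genes) held the simulated ratio. As no difference between cultures was simulated, this checks the computation and not how far the intervals cover such differences. Changes near 2-fold were not simulated. Alternatives were scaling by total counts, DESeq2 1.42.0 size factors or upper quartile factors, 2 as the pseudocount, 0.1 or 10 as the minimum mean, counts not rounded and other transcript lengths.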

Additional observations from a re-analysis of the deposited data

Results flagged for a closer look

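TET3 had opposite signs in the 2 pairs, -0.50 in the LN pair and 0.084 in the 2B pair, a difference of 0.58 in log2 ratio. The difference between the pairs was not tested, for this gene and for those below, since each line has 1 library.

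Genes of the related lists also had opposite signs in the 2 pairs. SYCP3 differed most, by -3.77 in log2 ratio (2B pair minus LN pair), and passed the minimum in the 2B pair only through C4-2B. GNMT differed by -1.02, MCM7 by -0.58 and TYMS by -0.46. In the other direction, MGMT differed by 0.84, PCNA by 0.83, MTRR by 0.82, XRCC1 by 0.72 and MKI67 by 0.49. The median of the methyl-CpG reader list was -0.027 in the LN pair and 0.0021 in the 2B pair, a difference of 0.029. Its 2B median was -0.040 with total counts as the scaling.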

How the results depend on the processing

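The log2 ratios of the 7 genes in the 2 pairs, 14 values, kept their sign under all 5 alternatives of scaling, pseudocount and rounding. DNMT3A ranged from -1.55 to -1.46 in the LN pair and from -1.42 to -1.36 in the 2B pair, DNMT3B from -1.06 to -0.97 and from -0.997 to -0.93, and TET1 from -1.10 to -0.998 and from -2.77 to -2.63. Of 463 values recomputed, 429 stayed within their interval or within 1.5 times the count, 32 moved and 2 reversed, the ratio of DNMT3B to DNMT3A in C4-2B and 2B-OlapR, which passed to the other side of 1 with the median transcript length. A further 4 values, all small beside 1.5-fold, had another sign. With total counts these were the S-phase median of the LN pair (-0.072), the reader median of the 2B pair (-0.040) and the DNMT1 difference between the pairs (0.0012), and with a minimum mean of 10 the reader median of the 2B pair (-0.013). Scaling by total counts took the DNMT1 ratio to 0.030 in the LN pair and to 0.33 between the resistant lines. Members at least 2-fold lower in the LN pair numbered 1 with a pseudocount of 2, as TET1 fell just short of 2-fold. With a minimum mean of 10, at which TET1 is not analysed, they numbered 1 in each pair. At that minimum, 1 methyltransferase cofactor and 1 TET partner were at least 1.5-fold changed in the LN pair. In the 2B pair, 0 genes of the methyl-CpG reader list were. With upper quartile factors, 0 cofactors and 0 TET partners were in the 2B pair. The share of all genes past the same fold was not computed under these alternatives, so these counts show only how the settings move them. The counts of all genes at least 2-fold lower and higher were 1983 and 2011 in the LN pair and 2220 and 1956 in the 2B pair with a minimum mean of 0.1, and 192, 196, 256 and 163 with a minimum of 10. With the median length of a gene's transcripts, which include short fragments, the ratio of DNMT3B to DNMT3A was 0.057 in LNCaP and 0.080 in LN-OlapR, and 0.139 in C4-2B against 0.186 in 2B-OlapR. The TET1 share was then 2.12%, 1.45%, 2.55% and 0.369%, and the TET3 share 88.4%, 86.8%, 88.5% and 92.2%. The longest principal transcript, chosen as an alternative after seeing the data, moved the UHRF1 level per kilobase and its ratio to DNMT1 only. The labels give no replicate numbers to block on, and with 1 library per line no replicate could be left out. A fit over the 4 libraries with parental background and resistance as terms, which takes the 2 pairs as replicates and leaves 1 residual degree of freedom, was not run. Depth limits TET1 most, with 17 counts in 2B-OlapR.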
